A study of Mus musculus with 6 samples.

Results

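Integrins hold blood cells and stromal cells to the bone marrow matrix and to each other, and they bind only weakly until proteins inside the cell act on them. Talins and kindlins bind the tails of integrin beta chains and switch the receptors on. The adaptor trio of integrin-linked kinase, a PINCH protein and a parvin, with paxillin and vinculin, then ties the bound receptor to actin. Kindlin-3 is the kindlin of blood cells, and its loss in people causes bleeding and faulty leukocyte adhesion, while kindlin-2 is found mainly in adherent cells such as stroma, endothelium and muscle. The 10 genes described here are Fermt2 (kindlin-2), Fermt3 (kindlin-3), Tln1 and Tln2 (the talins), Ilk, Lims1 (PINCH-1), Parva and Parvg (alpha- and gamma-parvin), Pxn (paxillin) and Vcl (vinculin). They are 10 of 18193 genes with a probe set of their own on the array, and every one of their 28 probe sets among 45037 is covered.

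Whole marrow came from 3 SCID/Bg mice given NOX-A12 and from 3 untreated SCID/Bg mice. SCID/Bg mice lack mature T and B lymphocytes and have impaired natural killer cells, and this background is common to both groups. NOX-A12 is a mirror-image RNA oligonucleotide that binds and blocks CXCL12, the chemokine that retains blood-forming cells in the marrow, and the labels state neither its dose nor its timing. Each mouse has 1 array of the Affymetrix type Mouse Genome 430 2.0, which reports a fluorescence intensity for each probe set.

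The genes were chosen by name with values of this same comparison in view, above all the lower Fermt2 signal in NOX-A12 mice, so the difference between groups is described here and not tested. A change is the NOX-A12 mean less the untreated mean of log2(intensity + 16), a scale that compresses differences of dim probe sets, and is given with the standard error (SE) of the fit in limma, a linear model for arrays. A probe set is called dim where its mean over the 6 arrays lay below the median of all probe sets, an intensity of 44.6. Of the 28 probe sets, 20 lay above that median and 8 were dim. A gene with several probe sets is represented by its brightest. Intensities of different probe sets are not set against each other, since probes differ in how strongly they hybridise.

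All 8 leukocyte markers, among them Ptprc (the pan-leukocyte antigen CD45), Mpo and Elane, lay above the median of all probe sets. Array medians lay between 44.8 and 45.6. Untreated mouse 3 stood apart. Its array correlated with the other arrays at r from 0.982 to 0.985 across probe sets, while each other array reached 0.993 or 0.994 with its closest neighbour. That mouse had the lowest summed intensity of the leukocyte markers, 32313, against 38929 to 41130.5 in the NOX-A12 mice and 40046 and 40666 in the other untreated mice. It also had the highest sum of the skeletal muscle markers, 836, against 431 to 499 in the NOX-A12 mice and 432 and 445 in the other untreated mice. That sum rests on Myh1, a myosin heavy chain gene, which read 355 in this mouse and 8.30 to 24.9 in the other 5. Without Myh1 it was 419 to 475 in the NOX-A12 mice, against 481 in untreated mouse 3 and 422 in each of the other untreated mice.

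Kindlin-2 transcript was lower in NOX-A12 marrow at its brightest probe set. Fermt2 probe set 1434180_at read 47.5, 45.6 and 57.4 in NOX-A12 mice 1 to 3, against 81.4, 105.7 and 119.5 in untreated mice 1 to 3. Every NOX-A12 mouse lay below every untreated mouse, and untreated mouse 3 was the highest of the 6. The NOX-A12 mean was 50.2 ± 6.30 and the untreated mean 102 ± 19.3 (SD, n = 3 each), a ratio of 0.491 and a log2 change of -0.83 ± 0.14. Without untreated mouse 3 the change was -0.72. The NOX-A12 readings lay close to 44.6, the intensity below which a probe set is called dim here.

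The other Fermt2 probe sets did not show this difference. Probe set 1459324_at, dim, read 39.6, 52.2 and 45.2 in NOX-A12 mice and 38.0, 38.6 and 41.4 in untreated mice, a change of 0.15 ± 0.11. Probe set 1434181_at, also dim, read 26.2, 18.4 and 17.4 in NOX-A12 mice and 18.4, 29.4 and 23.0 in untreated mice, a change of -0.11 ± 0.14. The groups overlapped on both. The mean over the 3 probe sets gave -0.26.

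Kindlin-3 transcript lay at nearly the same level in both groups, with a difference smaller than its SE. Fermt3 probe set 1456014_s_at read 4647, 4879 and 4922 in NOX-A12 mice, against 4582, 5718 and 5143 in untreated mice, and the untreated mice enclosed the treated ones. The NOX-A12 mean was 4816 ± 148 and the untreated mean 5148 ± 568 (SD, n = 3 each). The log2 change was -0.09 ± 0.11, with a 95% interval from -0.34 to 0.16. The other Fermt3 probe sets, all above the median, gave -0.04 ± 0.15 (1433964_s_at), 0.00 ± 0.12 (1433963_a_at) and 0.03 ± 0.10 (1443641_at), so the 4 probe sets of this gene lay within 0.12 of each other where the 3 of Fermt2 spread over 0.98. In an s-type name (_s_at) the probes can match more than 1 transcript, which applies to both of the brightest Fermt3 probe sets. The same holds for the brightest probe sets of Lims1, Pxn and Parva.

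**Figure D1:**
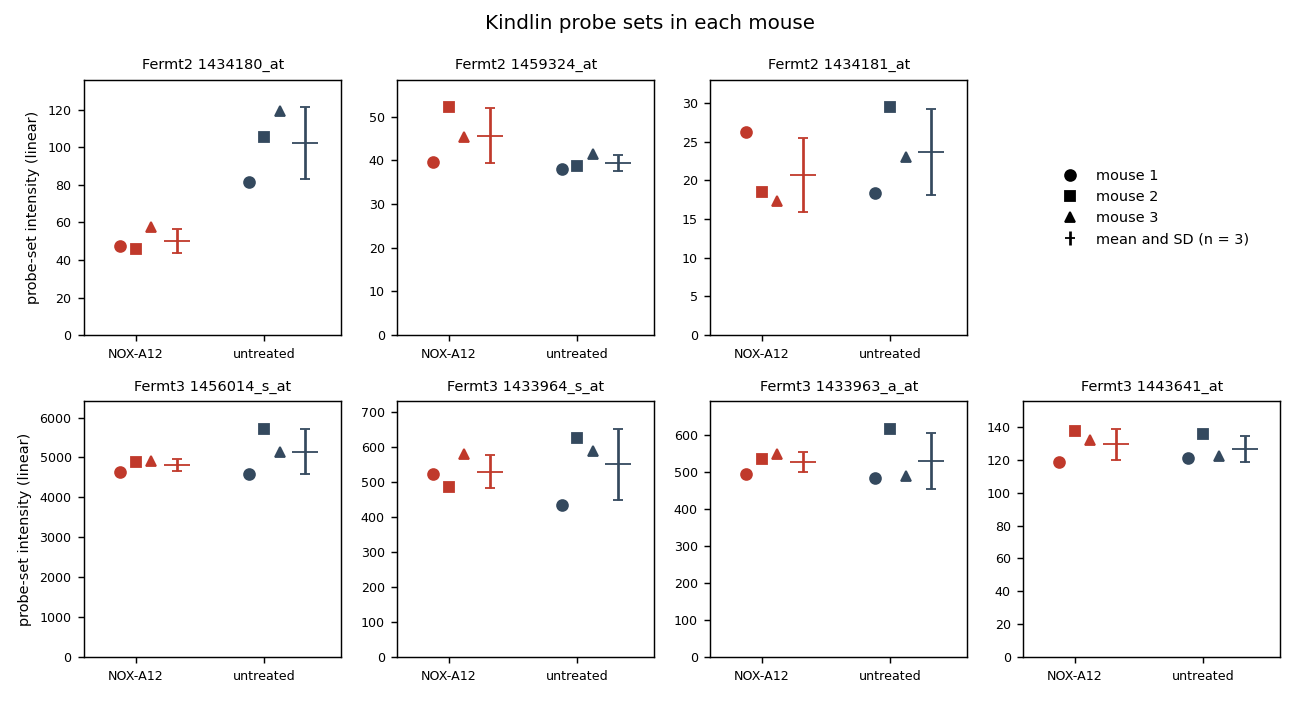
Intensity (linear axis from 0) of the 3 Fermt2 and 4 Fermt3 probe sets in each mouse, NOX-A12 left and untreated right, with mean and SD beside the points. At Fermt2 1434180_at the 3 NOX-A12 mice read 45.6 to 57.4, all below the untreated mice at 81.4 to 119.5, and in every other panel the groups overlap.

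Within each mouse the kindlins were compared as log2 Fermt2 minus log2 Fermt3 at the brightest probe set of each. The difference was set to 0 at the untreated mean, which removes a constant log2 gap between the probe sets. Probe brightness does not cancel fully, since the offset of 16 compresses the lower Fermt2 readings more than those of Fermt3. The value was -0.74, -0.85 and -0.62 in NOX-A12 mice 1 to 3, and -0.10, -0.10 and 0.21 in untreated mice 1 to 3. The groups did not overlap, and the difference of changes was -0.74 ± 0.12. The pairing was named in the choice of genes, so this too is a description. It was -0.63 without untreated mouse 3, -0.45 with an offset of 64 in place of 16, and -0.24 when all probe sets of each gene were averaged.

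The promoters of both kindlin genes are printed as reference context for the gene pair, and no value measured here bears on them. RefSeq windows on GRCm38.p6, from 250 bases before to 50 after the transcription start, were found for 7 of the 10 genes, and not for Tln2, Parva and Pxn. Both sequences are on the minus strand and written 5′ to 3′, with every CG dinucleotide, which reads the same on both strands, in capitals.
Fermt2, chr14:45530016-45530315: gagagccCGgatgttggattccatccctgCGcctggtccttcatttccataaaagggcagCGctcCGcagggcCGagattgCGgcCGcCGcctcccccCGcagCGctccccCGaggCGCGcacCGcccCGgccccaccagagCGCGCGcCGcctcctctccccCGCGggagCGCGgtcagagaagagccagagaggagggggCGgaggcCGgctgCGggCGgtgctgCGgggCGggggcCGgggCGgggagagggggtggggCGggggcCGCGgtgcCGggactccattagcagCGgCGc
Fermt3, chr19:7019420-7019719: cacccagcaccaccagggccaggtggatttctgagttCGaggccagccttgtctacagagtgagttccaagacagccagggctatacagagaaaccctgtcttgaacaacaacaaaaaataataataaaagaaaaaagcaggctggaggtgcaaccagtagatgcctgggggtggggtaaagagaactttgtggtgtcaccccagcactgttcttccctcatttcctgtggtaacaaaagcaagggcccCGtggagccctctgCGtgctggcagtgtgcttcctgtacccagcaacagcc
The Fermt2 window holds 37 CG dinucleotides, and 94.4% of 32817 mouse windows of this length hold fewer. The Fermt3 window holds 3, and 23.3% hold fewer. At least 1 CG occurs in 94.6% of all windows, with a median of 7.0. These counts describe the reference sequence and not these mice.

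The talins, which bind the beta tail and pull the integrin into its active form, gave a lower value for Tln2 and values on both sides of 0 for Tln1. Tln1, the talin of blood cells and many other tissues, read 560, 647 and 575 in NOX-A12 mice and 616, 581 and 434 in untreated mice at probe set 1448402_at. The groups overlapped, with untreated mouse 3 the lowest, and the change was 0.14 ± 0.15, or -0.01 without that mouse. Its other probe sets gave 0.22 ± 0.15 (1457782_at) and -0.13 ± 0.10 (1436042_at), in opposite directions. Tln2, the talin of muscle, brain and other solid tissues, was dim at all 3 probe sets. Probe set 1429111_at read 24.5, 22.6 and 20.1 in NOX-A12 mice and 28.9, 36.4 and 36.6 in untreated mice, with no overlap and a change of -0.38 ± 0.10. Probe set 1435700_at, at intensities from 7.64 to 18.9 in NOX-A12 mice and 10.8 to 30.0 in untreated mice, gave -0.12 ± 0.24. Probe set 1429112_at lay between 1.00 and 1.16 in the NOX-A12 mice and at 1.05, 6.06 and 1.00 in the untreated mice, too low to read. Within a mouse, log2 Tln2 minus log2 Tln1 was -0.36, -0.63 and -0.56 in NOX-A12 mice and -0.34, -0.04 and 0.38 in untreated mice. The difference of changes was -0.51 ± 0.22, and NOX-A12 mouse 1 and untreated mouse 1 nearly met. Without untreated mouse 3, Tln2 gave -0.34 and Tln1 -0.01 at these probe sets, a smaller difference.

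In the complex of integrin-linked kinase, PINCH and parvin, the groups overlapped at all 10 probe sets. Ilk, the scaffold pseudokinase at its centre, read 883, 824 and 904 in NOX-A12 mice and 849, 908 and 838 in untreated mice. Its change was 0.01 ± 0.09, with a 95% interval from -0.20 to 0.22, and its sign depended on which mouse was left out. Lims1, the PINCH adaptor that binds Ilk, read 2930, 2841 and 2850 in NOX-A12 mice and 2680, 2853 and 2070.1 in untreated mice at its brightest probe set 1418232_s_at, a change of 0.19 ± 0.13. Untreated mouse 3 was the lowest of the 6 mice at all 5 Lims1 probe sets. At 1418230_a_at it read 649.9, against 1736, 2909.5 and 2444 in NOX-A12 mice and 2595 and 2136 in the other untreated mice. That probe set had the largest upward change of the 28, 0.58 ± 0.49, which was -0.03 without untreated mouse 3. The remaining Lims1 probe sets gave 0.03 ± 0.19 (1418231_at), 0.05 ± 0.12 (1443947_at) and 0.10 ± 0.13 (1441411_at).

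The parvins, which link Ilk to actin, gave values below 0 for Parva and above 0 for Parvg, with overlapping mice throughout. Parvg, the parvin of blood cells, read 588, 533 and 498 in NOX-A12 mice and 548, 532 and 395 in untreated mice at 1416875_at, a change of 0.14 ± 0.14 that was 0.00 without untreated mouse 3. Its other probe set, 1416876_at, gave 0.19 ± 0.17. Parva, the widely expressed parvin, was dim at both probe sets. Probe set 1431375_s_at read 47.0, 43.9 and 33.9 in NOX-A12 mice and 42.1, 47.0 and 46.8 in untreated mice, a change of -0.10 ± 0.12. Probe set 1416818_at read 4.49, 11.2 and 16.6 in NOX-A12 mice and 13.4, 18.6 and 27.0 in untreated mice, a change of -0.42 ± 0.20 with overlapping groups. Within a mouse, log2 Parva minus log2 Parvg was -0.22, -0.16 and -0.33 in NOX-A12 mice and -0.24, -0.08 and 0.32 in untreated mice. The difference of changes was -0.24 ± 0.18. Without untreated mouse 3, Parva gave -0.08 and Parvg 0.00 at their brightest probe sets, a smaller difference.

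**Figure D2:**
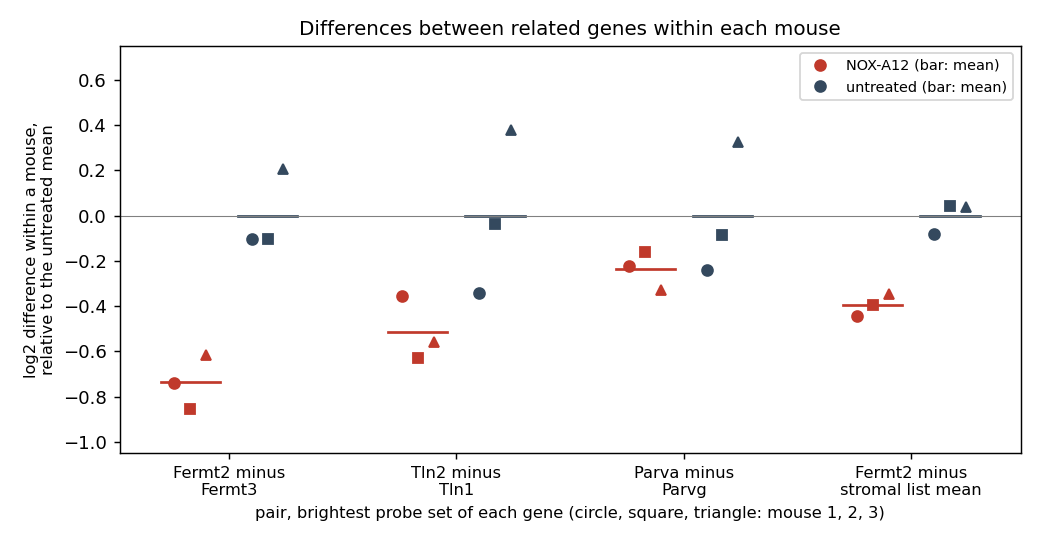
Log2 difference within each mouse, set to 0 at the untreated mean, NOX-A12 left and untreated right. Columns are Fermt2 minus Fermt3, Tln2 minus Tln1, Parva minus Parvg, and Fermt2 minus the mean of the stromal reticular marker list. Each gene is taken at its brightest probe set. Bars are group means of 3 mice. Fermt2 against Fermt3 leaves a gap between the groups, with NOX-A12 mice at -0.85 to -0.62 and untreated mice at -0.10 to 0.21. Tln2 against Tln1 nearly meets at mouse 1 of each group, and Parva against Parvg overlaps. Fermt2 against the stromal list leaves a gap, with a difference of changes of -0.39. That difference was 0.17 when all Fermt2 probe sets were averaged.

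Paxillin is a docking protein for kinases at the adhesion, and vinculin binds stretched talin and actin. At their brightest probe sets both lay far above the median of all probe sets, with changes close to the SE. Every probe set of both genes gave a change above 0. Pxn read 3458, 3428 and 3045 in NOX-A12 mice and 3138, 3289 and 2787 in untreated mice at 1456135_s_at, a change of 0.11 ± 0.11. Its other probe sets gave 0.13 ± 0.10 (1424027_at) and 0.20 ± 0.18 (1426085_a_at). Vcl read 3539, 3615 and 3589 in NOX-A12 mice and 3445, 3545 and 2942 in untreated mice at 1416156_at, a change of 0.12 ± 0.10 with a 95% interval from -0.12 to 0.36. Its dim probe set 1416157_at gave 0.13 ± 0.21, with untreated mouse 3 at 15.0 and none of the other 5 mice above 40.5.

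**Figure D3:**
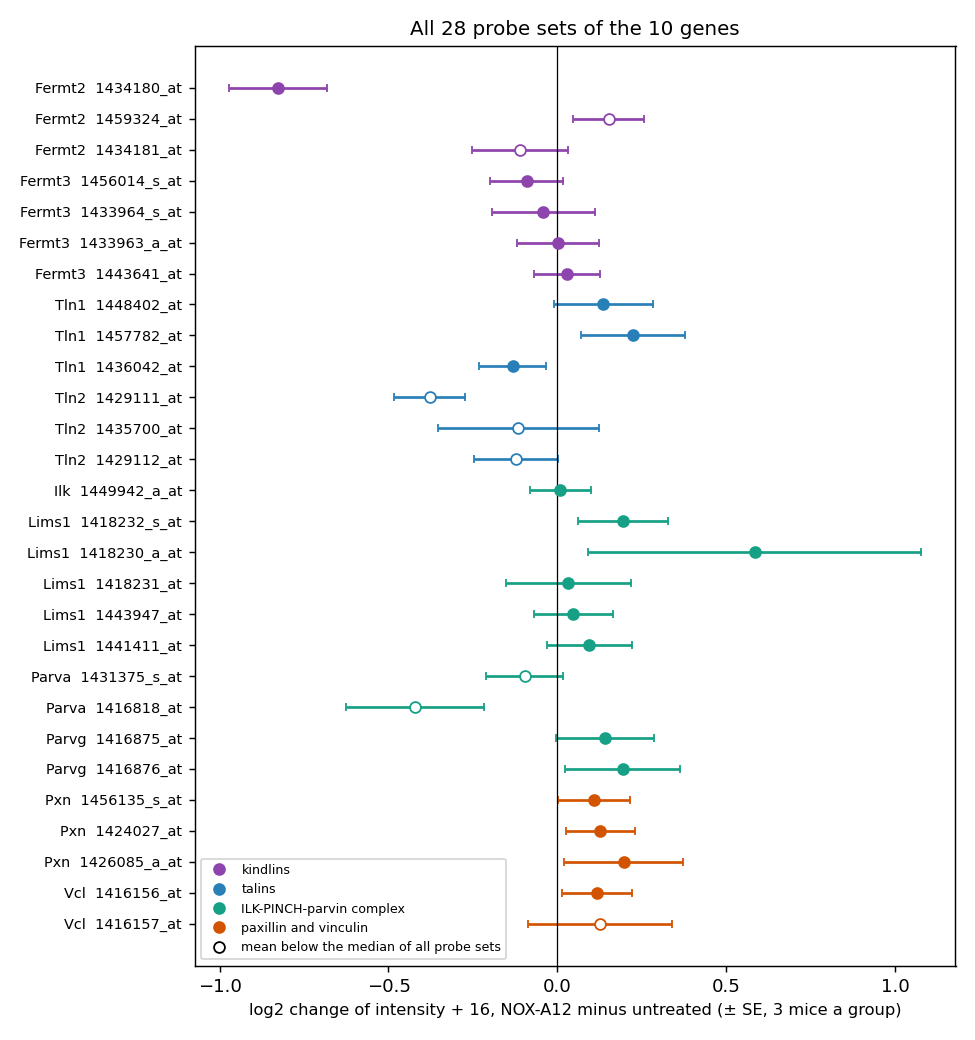
Log2 change, NOX-A12 minus untreated, with SE for each of the 28 probe sets, coloured by role, with open symbols for dim probe sets. Fermt2 1434180_at lies farthest below 0 at -0.83, and Lims1 1418230_a_at farthest above at 0.58 with an SE of 0.49.

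Over the whole set, 10 of 28 probe sets were lower and 18 higher in NOX-A12 mice, with a median change of 0.04, against 50.1% lower, 49.9% higher and a median of 0.00 over all 45037. The groups did not overlap for 2 of the 28, Fermt2 1434180_at and Tln2 1429111_at, both lower in NOX-A12 mice. That is 7.14%, where 5.85% of all probe sets were lower without overlap and 4% higher. With limma and Benjamini-Hochberg adjustment over all probe sets, 0 of the 28 passed an adjusted p of 0.05, and 0 of all 45037 (0%). At an unadjusted p under 0.05 the same 2 were lower and 0 higher, where 3.1% of all probe sets were lower and 1.88% higher. The difference between groups chose these genes, and nothing is read from these counts.

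Untreated mouse 3 was low for 5 of the genes and high for others. It was the lowest of the 6 mice at 14 of the 28 probe sets, which is 50% where 24% of all probe sets had their lowest value in that mouse. These 14 were all 5 of Lims1, all 3 of Pxn, both of Parvg, both of Vcl and 2 of the 3 of Tln1. It was the highest of the 6 at 5 probe sets, against 24.9% of all, and these were Fermt2 1434180_at, Tln2 1429111_at and 1435700_at, Parva 1416818_at and Tln1 1436042_at. Without this mouse, 16 in place of 10 of the 28 were lower in NOX-A12 mice, and at their brightest probe sets Pxn and Vcl then gave 0.04 each and Lims1 0.05. The part of leukocyte content in these values was not tested.

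**Figure D4:**
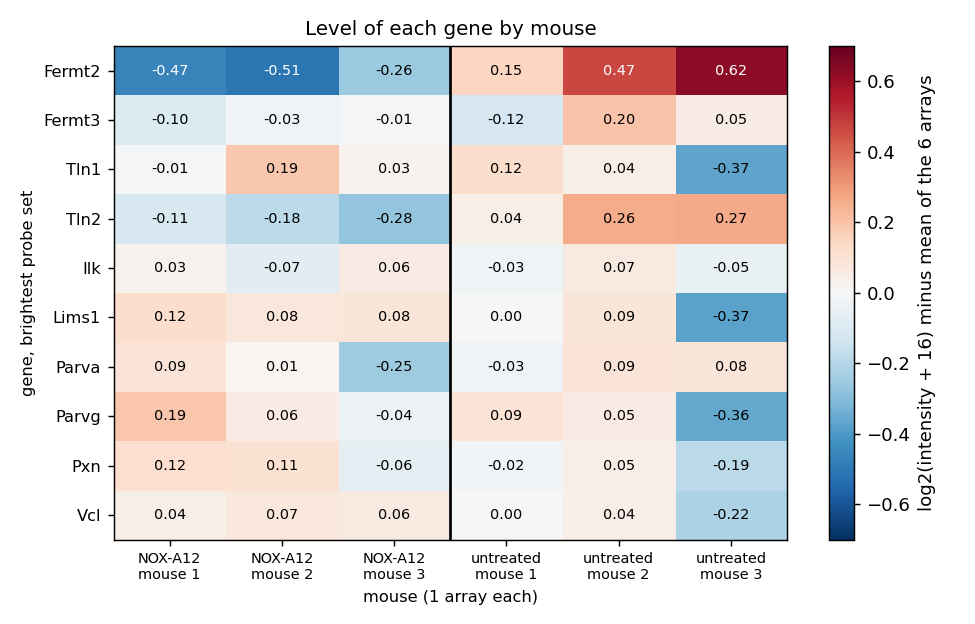
Log2(intensity + 16) of the brightest probe set of each gene in each mouse, minus the mean of the 6 arrays, NOX-A12 mice left of the line and untreated mice right. Fermt2 is below its mean in all 3 NOX-A12 mice (-0.51 to -0.26), and untreated mouse 3 is low for Tln1, Lims1, Parvg, Pxn and Vcl (-0.37 to -0.19) while high for Fermt2 (0.62) and Tln2 (0.27).

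Marker lists of stroma and endothelium were lower beside Fermt2. All 14 stromal reticular markers were lower in NOX-A12 mice at their brightest probe sets, where 52.8% of all genes were lower. Their median change was -0.47, with Vcam1 (-0.02 ± 0.09) and Igfbp4 (-0.03 ± 0.12) nearest 0. The 1 further probe set of Igfbp5 and of Dcn was not lower, and only 1 of 3 for Kitl was. The summed intensity of the list was 7646 to 8654 in NOX-A12 mice and 8909.6 to 10902 in untreated mice. Vcam1 and Igfbp4 weigh heavily in this sum, with NOX-A12 means of 2984 and 1570. All 12 endothelial markers were lower at their brightest probe sets, with a median of -0.37. Of these, Emcn (-0.03 ± 0.09) and Eng (-0.05 ± 0.11) lay nearest 0, and the 1 further probe set of Cdh5 was not lower. The endothelial sums were 1104 to 1175 in NOX-A12 mice and 1343 to 1684 in untreated mice. Without untreated mouse 3, the highest on both lists, the remaining untreated mice at 8909.6 and 10028 for stroma and 1343 and 1475 for endothelium still lay above every NOX-A12 mouse. Both lists were drawn up with earlier results of these mice known, so their direction is not independent evidence. In bulk marrow, fewer stromal cells and less RNA per stromal cell cannot be told apart. Fermt2 minus the mean of the stromal list was -0.44, -0.39 and -0.35 in NOX-A12 mice and -0.08, 0.04 and 0.04 in untreated mice, relative to the untreated mean, a difference of changes of -0.39 ± 0.05. Against the endothelial list it was -0.49 ± 0.11. Both values are descriptions that rest on Fermt2 1434180_at, through which the genes were chosen, and the direction turned when all 3 Fermt2 probe sets were averaged, to 0.17 ± 0.07 against the stromal and 0.08 ± 0.05 against the endothelial list.

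The other marker lists had medians closer to 0. Skeletal muscle markers had 7 of 12 lower, with a median of -0.03, and only 3 of them lay above the median of all probe sets. Smooth muscle and pericyte markers had 3 of 8 lower, with a median of 0.08, and 3 of the 8 lay above the median of all probe sets. Of those 3, Rgs5 gave -0.40 ± 0.16, Mylk -0.34 ± 0.17 and Acta2 0.34 ± 0.16. Platelet and megakaryocyte markers, whose cells depend on Fermt3 and Tln1, had 8 of 10 measured genes lower, with a median of -0.13 and sums of 15012 to 17992 in NOX-A12 mice and 14360.5 to 18691.5 in untreated mice. Neutrophil markers had 6 of 9 higher with a median of 0.03, macrophage markers 8 of 9 lower with a median of -0.21, and erythroid markers 6 of 7 higher with a median of 0.04. The groups did not overlap for 3 of the 9 macrophage markers, all lower, where 6.68% of all genes were lower without overlap. These were Siglec1 (-0.48 ± 0.12), Mertk (-0.45 ± 0.13) and Mrc1 (-0.32 ± 0.10). Vcam1 is on both the macrophage and the stromal list. The leukocyte markers were higher in 8 of 8, with a median of 0.12, which rests on untreated mouse 3. Relative to the mean of all arrays, their mean log2 level was 0.06, 0.15 and 0.02 in NOX-A12 mice 1 to 3. It was 0.08, 0.11 and -0.42 in untreated mice 1 to 3. Among the markers, intensities of exactly 1 occurred for Cnn1, in all 3 NOX-A12 mice and in untreated mouse 3, and for Tagln in untreated mouse 3. The part of these cell types in the changes of the 10 genes was not tested.

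By Pearson correlation over the 6 arrays among 10608 genes above the median, the genes most like Fermt2 1434180_at were Prok2 (r = 0.998), Pnmal2 (0.995), Desi1 (0.995), Abcc9 (0.994) and Itfg1 (0.989). Prok2 read 70.2, 69.8 and 83.6 in NOX-A12 mice and 118, 168 and 186 in untreated mice. Abcc9, a regulatory subunit of potassium channels, read 142, 151 and 173 in NOX-A12 mice and 216, 285 and 301 in untreated mice. The genes most like Fermt3 were Flot2 (0.991), Msra (0.990), Inpp1 (0.987), Ap4s1 (0.985) and Arpc4 (0.984), with changes between -0.09 and -0.06. The correlation took in the difference between groups, so genes picked as most like Fermt2 1434180_at tend to repeat its gap. How readily such values arise with 6 arrays and this many genes was not tested, and they are given as a description.

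Of 51 further focal adhesion genes on the fixed lists, 47 had a probe set of their own. Of these, 28 were lower and 19 higher in NOX-A12 mice, with a median change of -0.06 where that over all genes was -0.01. With limma, 0 passed after adjustment over all probe sets. At an unadjusted p under 0.05, 2 were lower (4.26%) and 0 higher, where 3.53% of all genes were lower. The groups did not overlap for 5 lower genes (10.6%) and 1 higher gene (2.13%), where all genes gave 6.68% lower and 3.92% higher.

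Among actin linkers, 10 of 15 were lower. Enah (Mena), which promotes actin filament growth at adhesions, averaged 82.7 ± 6.69 in NOX-A12 mice and 112 ± 12.6 in untreated mice (SD, n = 3 each), a change of -0.37 ± 0.11, but 3 of its 5 further probe sets went the other way. Tns3 (tensin-3), an adaptor between integrins and actin, averaged 937 ± 62.3 in NOX-A12 mice and 1135 ± 100.1 in untreated mice, a change of -0.27 ± 0.11, and its further probe set was also lower. Flna (filamin A), a crosslinker that competes with talin for integrin tails, averaged 2939 ± 115 in NOX-A12 mice and 2549 ± 269.6 in untreated mice, a change of 0.21 ± 0.11. The groups of these 3 genes did not overlap. Sorbs2, a vinculin-binding adaptor, gave -0.43 ± 0.20 with overlapping groups, and 2 of its 3 further probe sets went the other way. Its NOX-A12 mean of 39.6 lay below the median of all probe sets and its untreated mean of 59.0 above it.

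In the other lists, the named genes were spread on both sides of 0. Of the integrin beta chains, whose tails the talins and kindlins bind, 3 of 6 were lower, and Itgb5 gave -0.16 ± 0.16, Itgb1 0.14 ± 0.23, Itgb2 (the leukocyte beta chain) 0.08 ± 0.12 and Itgb3 (the platelet beta chain) -0.06 ± 0.14. Of genes that recruit or restrain talin, 5 of 10 were lower. Kank2, a talin-binding protein, gave -0.19 ± 0.10 with groups that did not overlap, and Apbb1ip (RIAM), which brings talin to the membrane with Rap1, gave -0.10 ± 0.17. Rap1a gave -0.06 ± 0.09 and Itgb1bp1 (ICAP-1), which occupies the beta-1 tail, 0.04 ± 0.09. Of the paxillin family and its signalling partners, 8 of 13 were lower. Tgfb1i1 (Hic-5, a paxillin relative) gave -0.25 ± 0.22, Nck2 -0.24 ± 0.19, Src -0.23 ± 0.26 and Crkl 0.25 ± 0.26, each close to its error. Parvb (beta-parvin) gave -0.16 ± 0.13 and Rsu1, which binds PINCH, 0.15 ± 0.13.

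**Figure D5:**
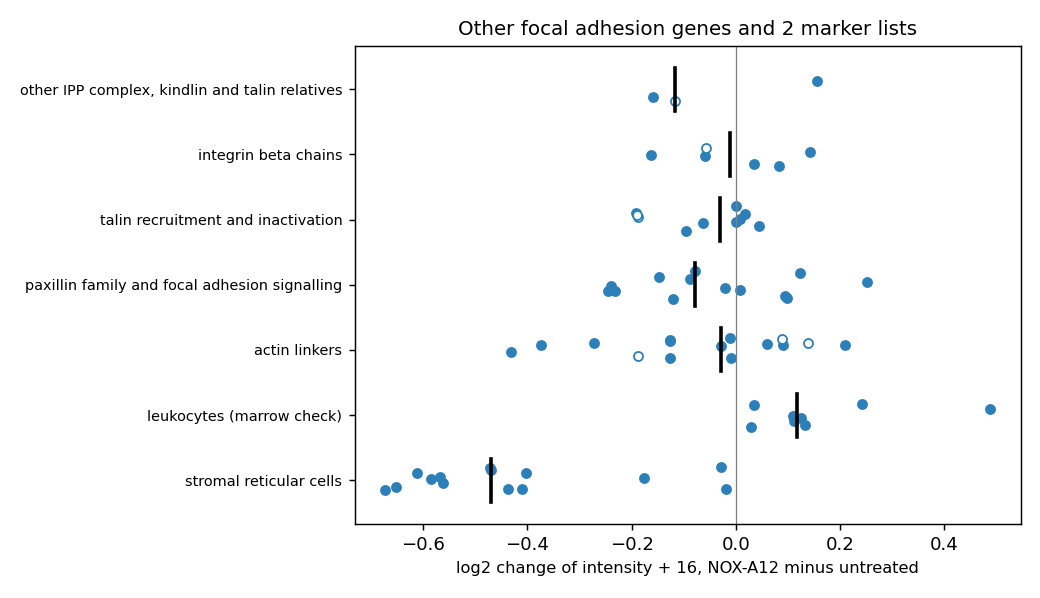
Log2 change, NOX-A12 minus untreated, of each gene of 5 lists of other focal adhesion genes and of the leukocyte and stromal marker lists, at the brightest probe set, with open symbols for dim probe sets and a bar at each median. The focal adhesion lists centre between -0.12 and -0.01, the leukocyte markers at 0.12 and the stromal markers at -0.47. Untreated mouse 3, the lowest of the mice in summed leukocyte markers, enters these values.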

How the data were processed

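Marrow RNA of 6 mice was measured on Affymetrix arrays, with group and mouse number read from each title. The authors' deposited intensity values, linear and already summarised per probe set, run from 0.66 to 16790. How they were summarised and normalized is not given in the sources used here, and no detection calls were used. Median log2 values of the arrays differed by at most 0.0193, so nothing was rescaled. The number of arrays limits the precision.

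The platform's annotation gave 34945 of 45037 probe sets 1 symbol, 932 several (left unnamed) and 9160 none. All 10 symbols matched RefSeq. limma 3.58.1 (R 4.3.3; lmFit, eBayes, two-sided, no covariate, Benjamini-Hochberg) was run on log2(intensity + 16) of all probe sets. Differences within a mouse have SEs from the 6 values. The scripts were tested on simulated data.

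The genes, gene lists and tests were chosen with earlier results of these data known. From each focal adhesion list the text names up to 4 genes with the largest absolute change among those above the median intensity. For each kindlin it names the 5 genes of highest correlation. The labels number separate mice. Alternatives are given in the closing section, and leaving out s-type probe sets and averaging Fermt2 probe sets against the cell lists were added after seeing the data.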

Additional observations from a re-analysis of the deposited data

How the results depend on the processing

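The count of probe sets past an adjusted p of 0.05 was 0 in limma and in all 15 alternatives tried, with 2240 at an unadjusted p under 0.05 in the chosen fit, 3555 without untreated mouse 1 and 1508 without NOX-A12 mouse 1. The change of Fermt2 (-0.83) lay between -0.96 and -0.72 when each mouse was left out. It was -0.54 with an offset of 64 and -0.26 over the mean of its 3 probe sets. The change of Fermt3 lay between -0.17 and -0.01 when each mouse was left out. The difference between the kindlins (-0.74) lay between -0.80 and -0.63 when each mouse was left out, and was -0.91 with an offset of 1, -0.45 with an offset of 64 and -0.24 over the means of all probe sets of each gene. The lower count of 10 of 28 lay between 8 and 16 when each mouse was left out, and was 12 with quantile normalization. It was 4 of the 20 probe sets above the median, where fewer are counted. Without s-type probe sets, 7 of 23 were lower, Fermt3 gave 0.00 and the difference between the kindlins was -0.83. Tln2 gave -0.58 with an offset of 1 and -0.18 with an offset of 64. Among the other members the sign changed in 5 of 11 alternatives for Ilk and in 1 each for Tln1, Parva and Parvg, all at sizes within 0.02 of 0. The labels do not say that same-numbered mice of the 2 groups were paired. Their deviations from the group means correlated at -0.09, 0.05 and 0.03, and those of differently numbered mice at -0.21 to 0.22. Deviations from a mean of 3 mice balance around 0, so these values cannot decide whether same-numbered mice were paired. With the mouse number as a replicate block, Fermt2 gave -0.83, Fermt3 -0.09 and the difference -0.74, with 0 probe sets past the threshold and 10 members lower. All probe sets of Tln2 and Parva and 2 of the 3 of Fermt2 were dim. Averaging all Fermt2 probe sets, an alternative added after seeing the data, turned its difference from the stromal list to 0.17 and from the endothelial list to 0.08.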
